A study of Mus musculus with 9 samples.

Results

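The genes described here encode the nuclear subunits of the mitochondrial respiratory chain and the ATP synthase, together known as the oxidative phosphorylation system. They were taken as every non-control probe whose gene name in the scanner files starts with Ndufa, Ndufb, Ndufc, Ndufs, Ndufv, Uqcr, Cox4 to Cox8 or Atp5, or is Sdha, Sdhb, Sdhc, Sdhd, Cyc1 or Cycs. That rule found 117 of 41174 probes, for 84 of 27962 gene names in the files, of which 80 are subunits of complexes I to V. Cytochrome c (Cycs) is a mobile carrier, and Ndufaf1, Cox4nb and Atp5s share the prefixes without being subunits.

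Cells came directly from prostate tissue of BL6 mice and were separated by fluorescent antibodies and flow cytometry, and both groups were negative for lineage markers (Lin-). The marker-positive group, called stem cells by the submitters, was Lin-CD44+CD133+Sca-1+CD117+ and had 3 arrays. The marker-negative group, called non-stem cells, was Lin-CD44-CD133-Sca-1-CD117- and had 6 arrays. Amplified sample RNA in Cy5 was hybridised with a common pool of mouse RNA in Cy3, with no dye swap, and a level below is the normalized log2 ratio of sample over that pool. No age, treatment or genotype beyond the strain is given. Whether the arrays of a group stem from different animals is not stated, and within each group they carry 1 shared identifier, so p-values measure the spread between arrays, which may be technical.

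Oxidative phosphorylation takes electrons from NADH at complex I and from succinate at complex II, passes them through complex III and cytochrome c to oxygen at complex IV, and pumps protons on the way. Complex V lets the protons flow back and makes ATP. The mitochondrial genome encodes a few core subunits of complexes I, III, IV and V, whereas complex II and the subunits measured here are nuclear. Prostate luminal cells are known for secreting citrate, which draws carbon away from the citric acid cycle that feeds this chain.

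Nuclear respiratory genes are known for a small set of promoter motifs, and the following windows show them for subunits that recur below. Of the 84 names, 68 matched RefSeq promoters of build GRCm38.p6, 73 windows running from 250 bases before to 50 bases after the annotated start. The motif of NRF1, a transcription factor of respiratory genes, was searched with any base allowed at 1 inner position, the others with fixed letters, and all on both strands. The NRF1 motif was in 24.7% of the members' promoters, 4.60% of all 32851 promoters and 6.38% of those of protein-coding genes. The YY1 motif was in 6.85% of the members' promoters, 0.852% of all and 1.21% of protein-coding ones. The ERR motif was in 2.74%, 0.423% and 0.334% in that order, and the ETS motif in 6.85%, 3.89% and 5.14%. Mean GC content was 57.9% for the members' promoters, 53.8% for all and 56.2% for protein-coding genes. Each window below has 30 bases, written 5′ to 3′ on the gene's strand, with the letters that matched in capitals, in their reverse complement where that is the strand that matched. The NRF1 match of Atp5g2 reads on both strands.
Ndufs6, complex I, NRF1, chr13:73328479-73328508: cgactgctgtGCGCCTGCGCcggcacttgg
Ndufs6, complex I, YY1, chr13:73328433-73328462: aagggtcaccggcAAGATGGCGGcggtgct
Sdhd, complex II, NRF1, chr9:50603909-50603938: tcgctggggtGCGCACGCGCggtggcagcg
Sdhd, complex II, ERR, chr9:50603800-50603829: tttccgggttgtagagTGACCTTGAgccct
Uqcr, complex III, ETS, chr10:80406869-80406898: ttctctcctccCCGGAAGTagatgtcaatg
Cox6a1, complex IV, NRF1, chr5:115349056-115349085: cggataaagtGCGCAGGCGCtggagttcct
Cox8a, complex IV, ETS, chr19:7217604-7217633: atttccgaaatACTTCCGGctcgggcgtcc
Atp5g2, complex V, NRF1, chr15:102671070-102671099: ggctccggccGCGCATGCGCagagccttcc
All of these lie on the minus strand of the genome. By complex, the NRF1 motif was in 24.2% of 33 complex I promoters, 7.69% of 13 of complex IV and 35.3% of 17 of complex V, and in 2 of 3 for complex II and 1 of 4 for complex III. The 17 members with the NRF1 motif had a median difference between the sorted groups of -0.23 (log2, marker-positive minus marker-negative), and the 51 without it -0.34. A match is a run of letters and not a measured binding site.

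Before the comparison, the arrays themselves have to be described, because 1 of the 3 marker-positive arrays stood apart. Over all tested probes, marker-positive replicates 1 and 2 correlated at 0.923, and replicate 3 correlated with them at 0.609 and 0.582. With the marker-negative arrays it correlated at 0.483 to 0.677, highest with their replicates 4 (0.677) and 6 (0.676). Over the member genes its correlations were 0.798 and 0.829 with marker-positive replicates 1 and 2, and 0.807 to 0.906 with the marker-negative arrays. Marker-positive replicate 3 also had the lowest detection, with Cy5 signal well above background for 45.5% of probes against 67.3% and 69.3%, and the marker-negative arrays ran from 47.5% to 69.5%. Detection among the members was high: 102 of 117 probes were well above background on all 9 arrays, none was saturated, and 111 probes for 83 genes were tested. Cox8c, a testis-type subunit of complex IV, was not well above background on any array. The sort markers Ly6a (Sca-1), Cd44 and Kit (CD117) were higher in the marker-positive arrays (limma adjusted p of 0.013, 0.017 and 0.046), while Prom1 (CD133) was not (difference -0.44, adjusted p 0.765). Among markers of other cells, 4 of 8 macrophage, 4 of 8 mast cell, 2 of 8 endothelial and 1 of 8 basal epithelial genes were called higher in marker-positive arrays, and 6 of 9 T and NK lymphocyte, 4 of 7 secretory prostate, 2 of 3 erythroid and 1 of 10 luminal genes lower. The mast cell calls include Kit, which is also a sort marker. None of 7 fibroblast, 9 muscle or 4 B lymphocyte genes was called. Mean log2 ratio of the macrophage list ran from 3.46 to 4.52 on marker-positive and from -0.22 to 2.14 on marker-negative arrays, and that of the T and NK list from -0.07 to 1.03 against 2.25 to 5.07. The fibroblast list averaged 1.16, 1.0 and -3.80 on the 3 marker-positive arrays in turn, and the luminal list 2.11, 2.10 and -0.57. Their part in the results that follow was not tested, and in such bulk samples fewer cells of a type and less RNA per cell cannot be told apart.

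No oxidative phosphorylation gene passed the test between the sorted groups when each gene was read by its brightest probe. With limma's moderated test and Benjamini-Hochberg adjustment at 0.05, 0 of 83 genes were called in either direction, beside 3.24% of all 19851 genes tested (1.57% higher and 1.67% lower). At an unadjusted p under 0.05, 7 members were lower and 1 was higher, beside 9.83% and 9.72% of all genes. By probe, 1 of 111 was called, a further Ndufa1 probe that was lower, beside 3.47% of all probes. The 95% interval of the difference stayed within -1 and 1 on the log2 scale, a 2-fold change either way, for 45 of 83 members and for 34.9% of all genes, so a larger change is outside the interval for those 45 and inside it for the others.

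The small differences of the members mostly had 1 sign. They were negative (lower in marker-positive arrays) for 75 of 83 members, beside 51.1% of all genes. By complex this held for 33 of 35 genes of complex I, 4 of 4 of complex II, 7 of 8 of complex III, 13 of 17 of complex IV and 15 of 15 of complex V. The median difference over the 79 measured subunits was -0.31, a median fold of 1.24, and that over all genes was -0.013. Both figures depend on how the dyes were balanced: with each array centred on its median in place of the loess curve, 55 of 83 were negative beside 45.2% of all genes, and the subunits' median was -0.09 with all genes at 0.051.

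**Figure D1:**
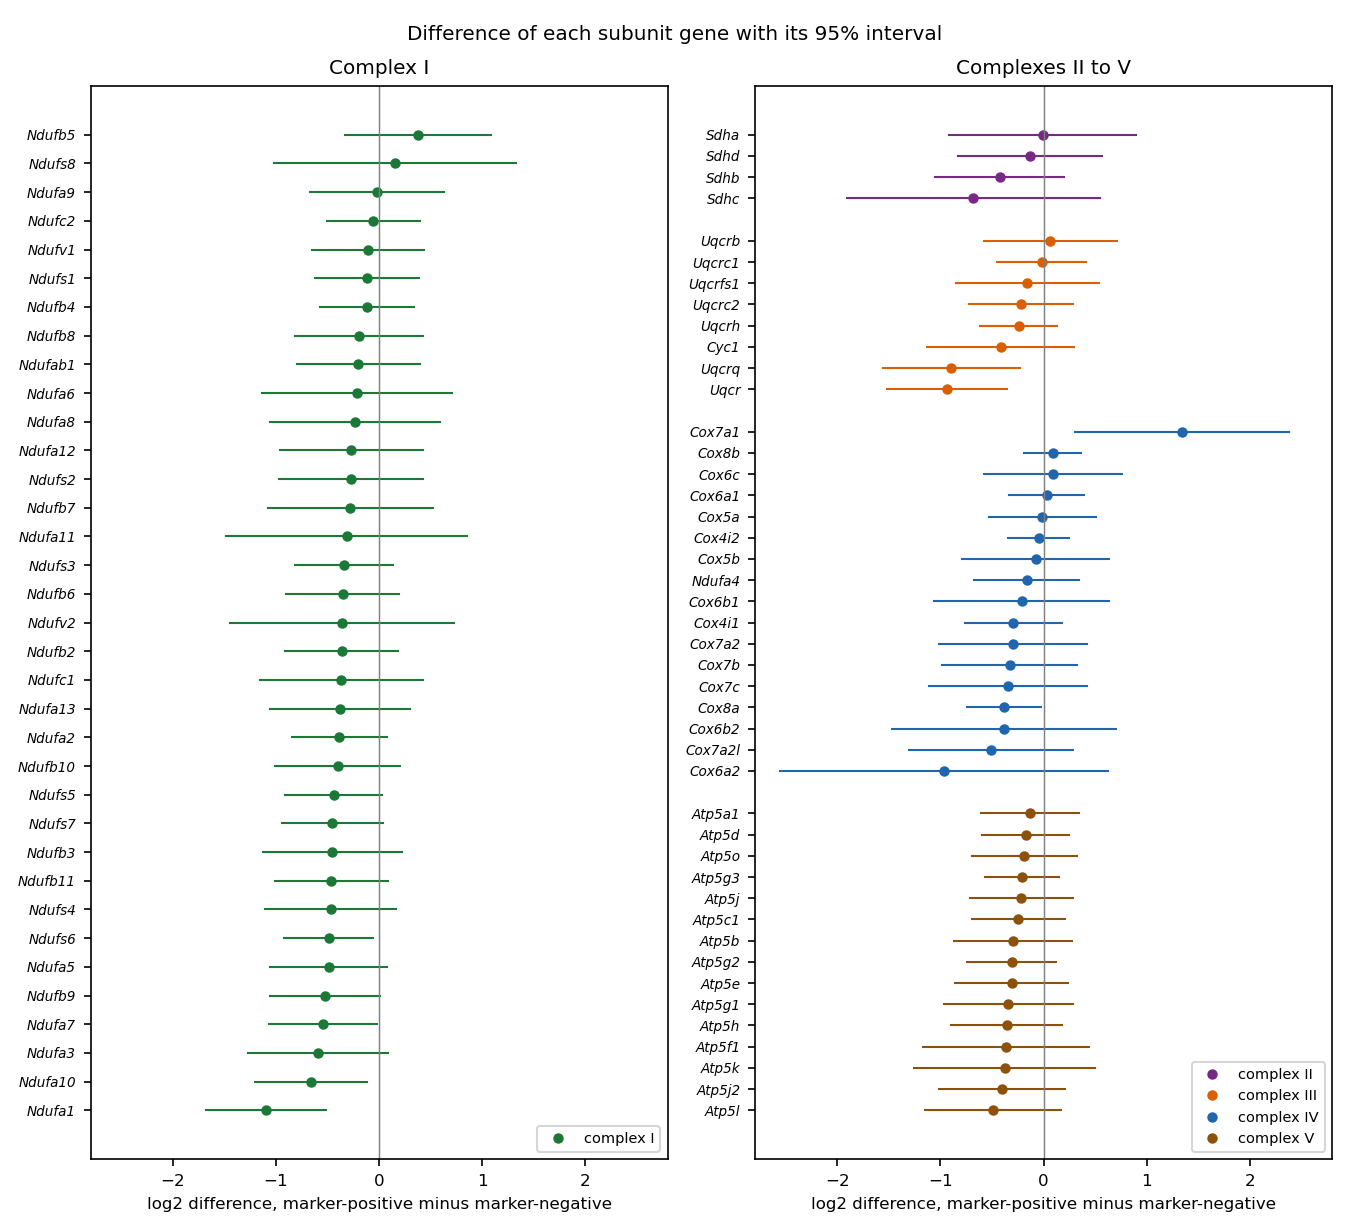
Log2 difference (marker-positive minus marker-negative, horizontal axis) of each of the 79 measured subunit genes, ordered within its complex; points are differences and lines are 95% intervals. Most points lie left of 0 with intervals that cross it, Ndufa1 and Uqcr lie farthest from 0 on the left for their width, and Cox7a1 is the point farthest to the right.

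The sign was not shared by the 3 marker-positive arrays. The median log2 ratio of the 79 subunits was -0.54, -0.49 and 0.32 on marker-positive replicates 1 to 3, and on marker-negative arrays the lowest was -0.29, the middle pair -0.079 and -0.073, and the highest 0.25. Replicates 1 and 2 thus lay below every marker-negative array and replicate 3 above every one. The group means of these medians were -0.24 ± 0.48 (SD, n = 3) and -0.016 ± 0.21 (SD, n = 6). Gene by gene, replicates 1 and 2 were both below all 6 marker-negative arrays for 40 of 83 members (48.2%), beside 18.0% of all genes. Replicate 3 exceeded both of them for 72 of 83 members (86.7%), beside 49.6% of all genes, and it lay within the marker-negative range for 49, above it for 22 and below it for 12.

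Detection and slide both varied with these medians. The arrays with the 2 lowest detection shares, marker-positive replicate 3 (45.5%) and marker-negative replicate 3 (47.5%), had subunit medians of 0.32 and 0.22, and the 4 arrays with the highest shares lay between -0.54 and -0.12. Marker-negative replicate 6, with 57.7% detected, had 0.25. Its part in the result was not tested. Within slide 1, where detection was 67.3% and 66.2%, the median difference of the subunits between marker-positive replicate 1 and marker-negative replicate 1 was -0.40, and that of all genes -0.045. Within slide 2, detection was 69.3% on marker-positive replicate 2, and 69.5% and 57.9% on marker-negative replicates 2 and 4. Between marker-positive replicate 2 and the mean of those marker-negative arrays, the median difference was -0.37 for the subunits and -0.038 for all genes.

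**Figure D2:**
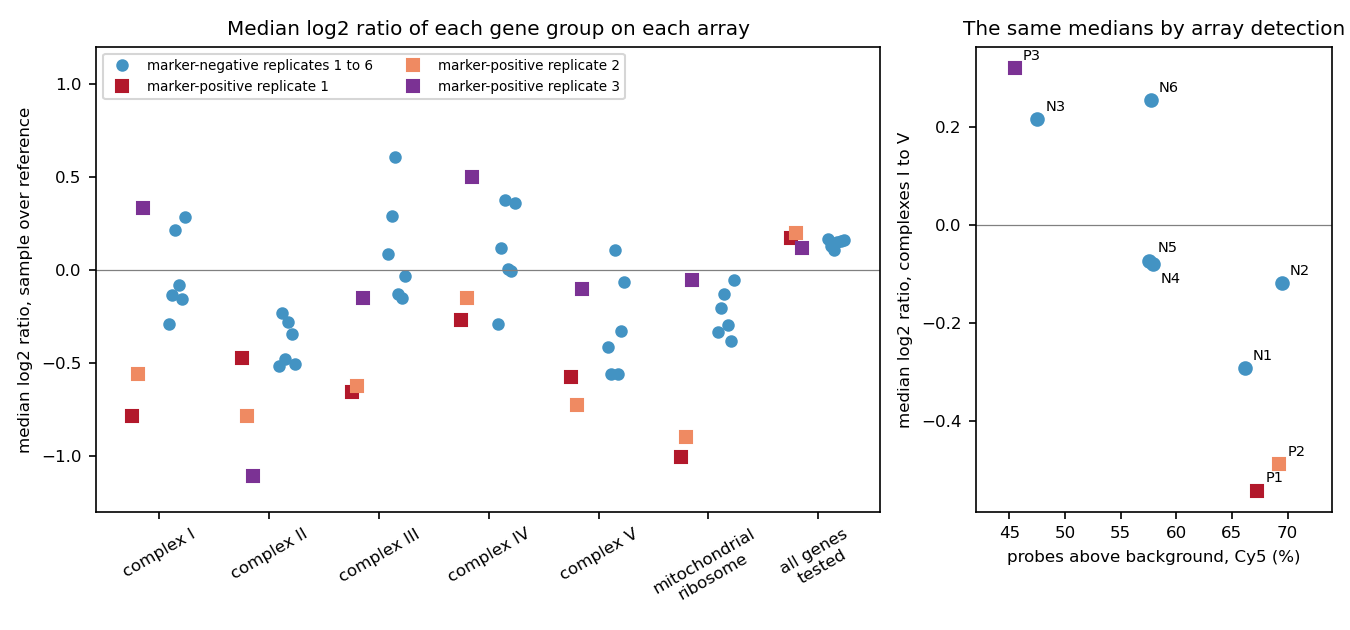
Left, median log2 ratio (sample over reference) of the measured genes of each complex, of the mitochondrial ribosome and of all genes on each array, with squares for the 3 marker-positive and circles for the 6 marker-negative arrays. Right, the median over complexes I to V against the percentage of probes above background in Cy5; there marker-positive replicates 1 and 2 are the lowest points (-0.54 and -0.49) and replicate 3 is the highest (0.32), whereas for complexes II, III and V on the left replicate 3 does not exceed all others.

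Without marker-positive replicate 3, 3 members were called lower and none higher (Ndufa1, Uqcrq and Ndufa6, 3 of 83), beside 2.52% of all genes lower and 4.71% higher. The median difference of the 79 subunits was then -0.54 and that of all genes -0.081. Without replicate 1 it was -0.15, and without replicate 2 it was -0.21. A fit that weights arrays by their own scatter gave replicate 3 a weight of 0.243, against 2.95 and 2.13 for replicates 1 and 2. That fit called 24 members lower (28.9%) and 1 higher, beside 11.4% and 11.1% of all genes. With slide as a fixed block, which rests on slides 1 and 2, no member was called, beside 0.746% of all genes in either direction.

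Complex I, which oxidises NADH, had a median difference of -0.36 over 35 genes, with a range from -1.09 to 0.38. Its 7 core subunits, which hold the flavin, the iron-sulphur clusters and the quinone site, had a median of -0.27, and the 28 accessory subunits one of -0.37. Replicates 1 and 2 lay below all marker-negative arrays for 23 of the 35 genes (65.7%), beside 18.0% of all genes. Without replicate 3 the median of the complex was -0.63, that of the core subunits -0.50 and that of the accessory ones -0.67, and without replicate 1 they were -0.17, -0.17 and -0.16.

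Ndufa1, a small membrane subunit needed to assemble complex I and X-linked, had the most negative difference of the complex. Its log2 ratios were 1.32, 1.62 and 2.23 on the marker-positive arrays, and 2.23, 2.86 and 3.21 as the lowest, median and highest marker-negative values. Only marker-positive replicate 3 reached the marker-negative range, at the level of marker-negative replicate 4. The difference was -1.09 (SE 0.26, limma adjusted p 0.0523). The further probe read 1.49, 1.73 and 2.14, all below the lowest marker-negative value of 2.48, and it fell by 1.23 (SE 0.23, adjusted p 0.0243). The brightest probe, at chrX:31947395-31947454 in mm7, passed the threshold under some settings and not under others. Its adjusted p was 0.0179 without marker-positive replicate 3, 0.0499 with a background offset of 16, 0.434 with median centring and 0.122 with Cy5 alone. Ndufa1 was the 1 member called with that offset (beside 1.63% of all genes lower), with probes detected in both channels on all arrays (2.74%), with slide as a random block (1.79%), with the probes of a gene averaged (1.75%) and without marker-negative replicate 4 (2.09%).

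Ndufa10, an accessory subunit at the membrane arm, read -2.81, -2.86 and -2.59 on marker-positive arrays and -2.42, -2.08 and -1.75 as the lowest, median and highest of the marker-negative ones. The groups did not overlap, and the difference of -0.66 (SE 0.24) had a limma adjusted p of 0.174. By brightest probe, groups without overlap and lower in marker-positive arrays were found for 3 members (Ndufa10, Uqcr and Cox8a), 3.61% of 83 beside 6.47% of all genes. Groups without overlap and higher there were found for none, beside 5.14%. Ndufs6, a zinc-binding accessory subunit whose promoter windows are printed above, read 0.09, 0.04 and 0.57 against a marker-negative range of 0.53 to 0.98 with a median of 0.70. Its 3 probes had differences between -0.50 and -0.48, and the brightest had an adjusted p of 0.205.

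Ndufb5, a membrane-arm accessory subunit, had the highest difference of complex I. It read 0.93, 0.58 and 1.73, and from 0.07 to 1.06 (median 0.80) on marker-negative arrays, so that replicate 3 alone exceeded the range. The difference was 0.38 with a 95% interval from -0.33 to 1.09. For Ndufab1, which is also the mitochondrial acyl carrier protein, 3 tested probes ran from -0.31 to 0.41. The probe at 0.41 was well above background on only 2 of 3 marker-positive and 2 of 6 marker-negative arrays. Those detected on all 9 arrays gave -0.20 and -0.31. For Ndufb8 the brightest gave -0.19 and the other 1.30. These genes have no settled direction here. Of 22 members with several tested probes, 4 had probes of opposite sign (Ndufab1, Ndufb8, Uqcrq and Atp5a1). Ndufs4, an accessory subunit next to the NADH-binding module, had a difference of -0.47 by its bright probe, and its dim probe, above background on 2 of 3 marker-positive and on no marker-negative array, was not tested.

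Complex II, succinate dehydrogenase, is also an enzyme of the citric acid cycle and has 4 subunits, all nuclear. Its median difference was -0.28, and it is the complex in which marker-positive replicate 3 was lowest, with a median of -1.11 against -0.47 and -0.78 for replicates 1 and 2. Sdha, the flavoprotein, read -0.31, -0.91 and -1.85 against -1.64 to -0.29 (median -1.09), a difference of -0.0075 (SE 0.41), and its other probe gave -0.65. Sdhb, the iron-sulphur subunit, read -0.71, -0.66 and -0.48 against -0.66 to 0.54 (median -0.27), a difference of -0.43 (SE 0.28). By brightest probe the groups overlapped for both genes. The other Sdha probe read -2.47, -2.77 and -2.41, all below the lowest marker-negative value of -2.37. It was well above background on 2 of 3 marker-positive and 5 of 6 marker-negative arrays.

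Sdhc, a membrane anchor, read 0.64, 0.72 and -1.73 against -0.28 to 1.07 (median 0.75). Replicate 3 lay below every other array, and the difference was -0.68 (SE 0.55) with it and 0.12 without it. The other anchor, Sdhd, read -0.63, -1.39 and -0.27 against -1.37 to -0.31 (median -0.54), a difference of -0.13 (SE 0.31). The adjusted p of the 4 genes lay between 0.447 and 0.995, and without replicate 3 the median of the complex was -0.13.

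Complex III, the cytochrome bc1 complex, had a median difference of -0.23 over 8 genes. The 2 largest differences were both in small accessory subunits, Uqcr (current symbol Uqcr11) and Uqcrq. Uqcr read -0.31, -0.012 and 0.15 on marker-positive arrays and 0.40, 0.84 and 1.49 as the lowest, median and highest marker-negative values. All 3 marker-positive arrays lay below all 6 others. The difference was -0.94 (SE 0.26, 95% interval -1.52 to -0.35), and its limma adjusted p was 0.0866. The probe lies at chr10:80191746-80191805 in mm7.

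Uqcrq, known as a ubiquinone-binding protein, read -0.82, -0.72 and 0.32 against 0.19 to 1.17 (median 0.43). Replicates 1 and 2 lay below every marker-negative array, and replicate 3 within their range. Its difference was -0.89 (SE 0.30, adjusted p 0.137) over all arrays, -1.26 (adjusted p 0.0239) without replicate 3 and -1.14 (adjusted p 0.0409) on slides 1 and 2 alone, where it was the 1 member called beside 2.96% of all genes in either direction. The gene's other probe gave 0.33, so the direction rests on 1 probe. That other probe was well above background on 3 of 3 marker-positive but only 2 of 6 marker-negative arrays.

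The other genes of complex III, catalytic and accessory alike, had smaller differences than Uqcr and Uqcrq. Cyc1, the cytochrome c1 that passes electrons to cytochrome c, read -1.20, -1.08 and -1.66 against -1.89 to -0.52 (median -0.71), a difference of -0.41 (SE 0.32). Uqcrb, a small accessory subunit and the 1 positive gene of the complex, read 1.29, 1.47 and 2.67 against 1.59 to 2.0 (median 1.71), with replicates 1 and 2 below and replicate 3 above all marker-negative arrays. Its difference of 0.07 (SE 0.29) is an average of those opposite positions. Cytochrome c, Cycs, read -0.59, -0.42 and 0.35 against -0.71 to -0.05 (median -0.36), a difference of 0.13 (SE 0.25), and its 3 probes ran from 0.13 to 0.78.

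**Figure D3:**
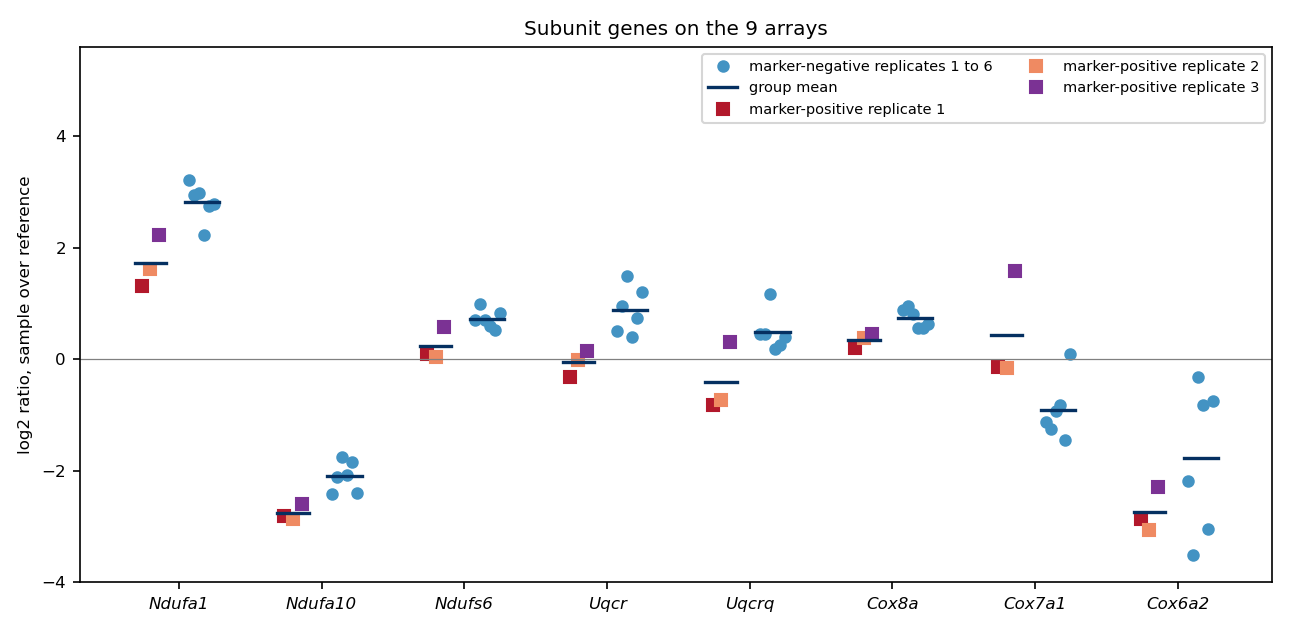
Log2 ratio (sample over reference, vertical axis) of 8 subunit genes on each array, each read by its brightest probe; squares are marker-positive, circles marker-negative arrays and bars the group means. The groups do not overlap for Ndufa10, Uqcr and Cox8a, and marker-positive replicate 3 (purple) is the highest of its group for all 8.

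Complex IV, cytochrome c oxidase, is the complex with tissue-specific subunit isoforms, and its genes were the most mixed. The median difference was -0.21 over 17 genes, -0.25 over the 12 common or single subunits and -0.05 over the 5 measured tissue-restricted isoforms. Without marker-positive replicate 3 these medians were -0.42, -0.43 and -0.13, and without replicate 1 they were -0.016, -0.021 and -0.016. With any other 1 array left out the median of the complex ran from -0.34 to -0.11. Cox7a1, the heart and skeletal muscle isoform of subunit 7a, was the only member with an unadjusted p under 0.05 in the positive direction. It read -0.13, -0.15 and 1.58 on marker-positive arrays and -1.44, -1.02 and 0.10 as the lowest, median and highest marker-negative values, so that 1 marker-negative array, replicate 6, overlapped. The difference was 1.34 (SE 0.46, 95% interval 0.30 to 2.38, limma adjusted p 0.150), and within slides 1 and 2 it was 0.98 and 0.89. The common isoform Cox7a2 had a difference of -0.30 (SE 0.32), and Cox7a2l, a supercomplex factor of the same family, -0.51 (SE 0.36).

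Cox6a2, the heart and skeletal muscle form of subunit 6a, read -2.86, -3.05 and -2.28, while the marker-negative arrays split: replicates 3, 4 and 6 read -0.32, -0.83 and -0.74 and replicates 1, 2 and 5 read -2.18, -3.50 and -3.05. The difference of -0.96 (SE 0.71) is within that spread. Cox8b, the muscle form of subunit 8, had a difference of 0.09 (SE 0.12), but its probe was well above background on only 2 of 3 marker-positive and 1 of 6 marker-negative arrays. Beside these genes, the list of smooth and striated muscle markers averaged from -0.94 to 0.47 on marker-positive and from -1.54 to 0.0095 on marker-negative arrays, and its part was not tested.

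Among the other isoform pairs, no gene passed the test. Cox8a, the common form of subunit 8, read 0.20, 0.38 and 0.46 against 0.56 to 0.95 (median 0.72), a small difference of -0.39 (SE 0.16, adjusted p 0.221) with no overlap. Cox4i1, the common form of subunit 4, had -0.29 (SE 0.21), and its lung-type partner Cox4i2 -0.05 (SE 0.13). Cox6a1 had 0.03 (SE 0.16), with values from -0.88 to -0.56 on marker-positive and -1.01 to -0.40 on marker-negative arrays. Cox6b1 had -0.21 (SE 0.38), and the testis form Cox6b2 -0.39 (SE 0.49). Ndufa4, once assigned to complex I and counted here with complex IV, had -0.16 (SE 0.23).

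By brightest probe, complex V, the ATP synthase, was the most uniform: all 15 genes had a negative difference, between -0.49 and -0.13. None had an unadjusted p under 0.05 by that probe. For Atp5b, an F1 subunit, the brightest probe gave -0.30, but another gave -1.54 (SE 0.49, limma unadjusted p 0.0103, adjusted p 0.119). That other probe had no overlap between the groups. For 11 of 15 the 95% interval stayed within a 2-fold change, the highest share of the 5 complexes. The 5 subunits of the catalytic F1 head had a median difference of -0.24, the 3 genes of the proton-carrying c ring -0.31, and the 7 of the stalk and membrane sector -0.36. In the F1 head, the medians of marker-positive replicates 1 to 3 were -0.57, -0.73 and -0.73, so replicate 3 was not raised there, whereas in the stalk and membrane sector they were -1.11, -0.91 and -0.20. Without replicate 3 the median differences of the head, the c ring and the stalk and membrane sector were -0.12, -0.53 and -0.68, and that of the complex was -0.53. Without replicate 1 they were -0.21, -0.12, -0.18 and -0.15.

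Atp5a1, the alpha subunit, read -0.57, -0.73 and -1.12 against -1.05 to -0.41 (median -0.63), with a difference of -0.13 (SE 0.21) and 0.09 by its other probe. Atp5l, subunit g of the membrane sector, had the most negative difference of the complex, -0.49 (SE 0.30), and read -2.38, -2.66 and -1.77 against -2.35 to -1.25 (median -1.68). The c ring is encoded by 3 genes for 1 identical mature protein. Their differences were -0.34 for Atp5g1 (SE 0.28), -0.31 for Atp5g2 (SE 0.19) and -0.21 for Atp5g3 (SE 0.16), and for all 3 genes replicates 1 and 2 lay below every marker-negative array and replicate 3 within their range. For Atp5g2 the values were -0.28, -0.012 and 0.52 against 0.26 to 0.55 (median 0.38).

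The 3 genes that share the prefixes without being subunits also had negative differences. They were -0.44 (SE 0.47) for Ndufaf1, an assembly factor of complex I, -0.52 (SE 0.26) for Cox4nb (current symbol Emc8), a neighbour of Cox4i1 with another product, and -0.57 (SE 0.37) for Atp5s (Dmac2l). Their limma adjusted p lay between 0.307 and 0.666.

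Other mitochondrial and sugar-metabolism lists gave few calls. The mitochondrial ribosome, which translates the subunits encoded in mitochondria, had 4 of 78 measured genes called lower, beside 1.67% of all genes, and none higher, a median difference of -0.41 and 63 negative differences. Those called were Mrpl53 (fell by 1.14, SE 0.24, adjusted p 0.0329), Mrpl22 (fell by 1.10, adjusted p 0.0409), Mrps34 (fell by 1.10, adjusted p 0.0447) and Mrps26 (fell by 0.82, adjusted p 0.0446). The groups did not overlap, with marker-positive arrays lower, for 14 of the 78 genes (17.9%), beside 6.47% of all genes, these 4 among them. These calls depended on single arrays: 13 genes were called lower without marker-positive replicate 3 (median -0.71), beside 2.52% of all genes. The count was 1 without marker-negative replicate 3, 2 without marker-negative replicate 4 and 0 without any 1 of the other 6 arrays, where the median ran from -0.45 to -0.24. With median centring and with slide as a fixed block 0 genes were called. Its medians by array ran like those of the subunits, -1.01, -0.90 and -0.05 on marker-positive replicates 1 to 3 against -0.38 to -0.06 on the marker-negative arrays.

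In the remaining lists no gene was called over all arrays. Assembly factors had a median of -0.26 over 31 genes, and Surf1, which helps to build complex IV, the smallest adjusted p of them (difference -0.71, SE 0.20, adjusted p 0.0863, groups not overlapping). The 14 citric acid cycle genes had a median of -0.08, with Idh3b at -0.90 (adjusted p 0.176), and the 11 of pyruvate entry one of -0.15, with Pdk3 at 1.04 (adjusted p 0.162). The 16 regulators of mitochondrial biogenesis had a median of 0.21, with Ssbp1, the mitochondrial single-strand DNA-binding protein, at -0.75 (adjusted p 0.225). The 7 carriers had one of 0.03, with Slc25a4, the heart and muscle ADP/ATP carrier, at 0.60 (adjusted p 0.375). The 17 genes of glycolysis had a median of 0.24, with Hk2, a hexokinase bound to mitochondria, at 1.89 (adjusted p 0.0610). Without marker-positive replicate 3, glycolysis had 4 genes called higher, beside 4.71% of all genes, and a median of 0.41. Without replicates 1 and 2 in turn, its medians were 0.067 and -0.0082, with 0 called. Without replicate 3 the regulators of biogenesis had 1 gene called lower, beside 2.52% of all genes, and a median of 0.061. The medians were then -0.42 for assembly factors, -0.15 for the citric acid cycle and 0.17 for carriers, with 0 called.

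**Figure D4:**
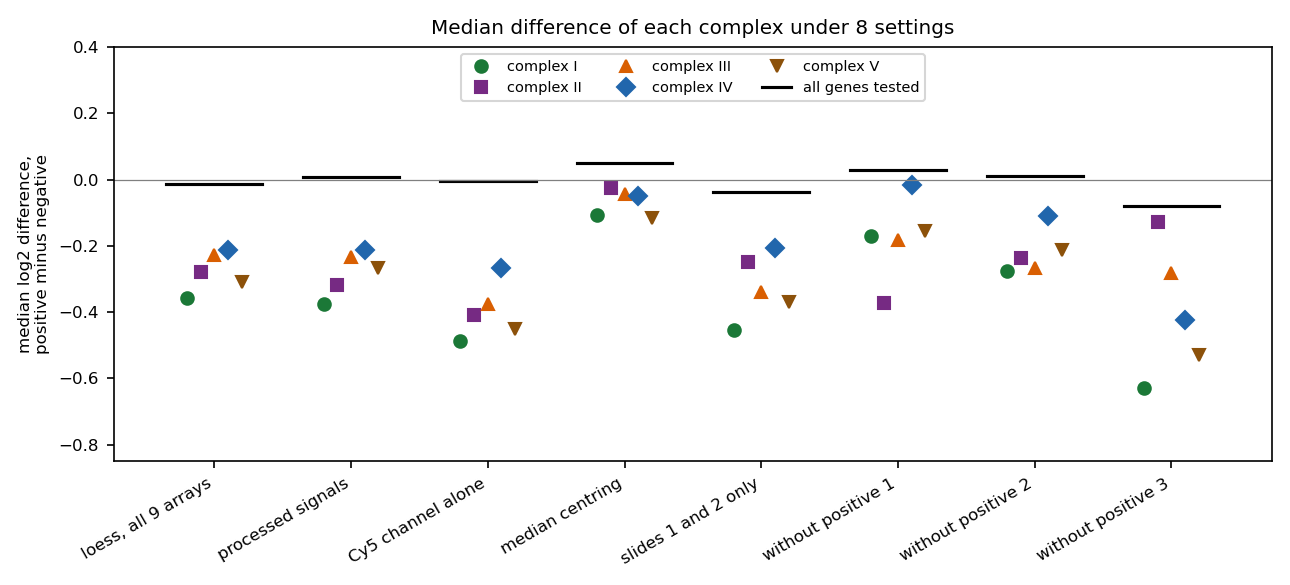
Median log2 difference (marker-positive minus marker-negative, vertical axis) of each complex under 8 settings, with a black line for all genes tested. Every median of a complex lies below 0; with median centring they run from -0.12 to -0.025, and without marker-positive replicate 3 complex II is the least negative (-0.13) and complex I the most (-0.63).

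The authors' deposited table, which gives their own comparison without values per array, lists 6 of the 117 member probes with an adjusted p under 0.05, beside 5.58% of its 43379 rows. Of these, 5 in the authors' deposited table are lower in stem cells, both Ndufa1 probes (adjusted p 0.00949 and 0.0265), Uqcr (0.0321), 1 probe of Ndufa7 (0.0414) and Uqcrq (0.0468). The other, Cox7a1, is higher there, with a signed fold of 2.51 and an adjusted p of 0.0200 in the authors' deposited table.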

How the data were processed

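Spot intensity values of both channels stand in the deposited scanner files, which per the submitters' processing notes come from Agilent Feature Extraction 10.7. The authors' deposited table gives log2 differences, p-values, score columns and a signed fold, with their normalization not given in the sources used here. The background of mean spot intensities was corrected by normexp (offset of 50) in limma 3.58.1 (R 4.3.3) and ratios normalized by loess within arrays, with outlier spots missing. The test took the 28334 of 41174 probes whose Cy5 signal was well above background on 3 or more arrays. A gene was represented by its brightest tested probe over both channels. The 3 marker-positive and 6 marker-negative arrays were compared with limma (trend on mean intensity, robust, two-sided), with Benjamini-Hochberg adjustment over all tested probes and a threshold of 0.05. SE is the moderated standard error. Named genes were, per complex, those called, the highest and lowest differences and the 2 smallest adjusted p, all of complex II, Cyc1, Cycs, isoform pairs, genes whose probes differed in sign or call, and from each other list those called and the smallest adjusted p. Atp5b, Ndufa6, Ndufa7, Ndufs4, Ndufs6 and the 3 non-subunits were named after their values were seen. Members and lists were chosen with earlier results of these data known. Probe coordinates are those of the files (mm7). The number of arrays limits the precision. Alternatives covered background correction, normalization, filter, variance model, array weights, slide, probe rule and each array left out. Analyses of slides 1 and 2 alone and with scaling between arrays were chosen after seeing the data. The fit was tested on simulated data. Plots were drawn with matplotlib 3.10.9.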

Additional observations from a re-analysis of the deposited data

Results flagged for a closer look

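Of 37 member genes named above, 2 had 1 marker-negative array far from the other 5, by Dixon's test at its 95% critical value, and chance marks about 1 in 20 such groups. For Uqcrq, marker-negative replicate 3 read 1.17, above the other 5. For Cyc1, marker-negative replicate 3 read -1.89, below the other 5. Both are the same array, which has the lowest detection of its group (47.5%).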

How the results depend on the processing

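The count of members called lower was 0 over all arrays. It was 1 (Ndufa1) with an offset of 16, with probes detected in both channels on all arrays, with slide as a random block and with probes averaged, 1 (Uqcrq) on slides 1 and 2 alone, and 24 with array weights, which also called 1 (Cox7a1) higher. Leaving out 1 array gave 0 to 3 lower, with 3 without marker-positive replicate 3 and 1 without marker-negative replicate 4, and 0 higher. For the other metabolic lists (78, 31, 14, 11, 16, 7 and 17 genes), 4 were called lower and 0 higher. The lower count was 0 with median centring, with slide as a fixed block and on slides 1 and 2 alone, 1 with no detection filter, 2 with Cy5 alone, 42 with array weights and 0 to 14 with 1 array left out. The higher count was 2 with detection in both channels, 7 with array weights, 1 with probes averaged, 1 on slides 1 and 2 alone and 0 to 4 with 1 array left out. Of all genes, 1.67% were called lower and 1.57% higher over all arrays, and 11.4% and 11.1% with array weights. Without marker-positive replicate 3, which gave the highest counts with 1 array left out, these shares were 2.52% and 4.71%. The median difference of complex II was -0.025 with median centring. In all other settings the medians of complexes I to V moved by less than the pooled SD of the complex's array medians within groups. That SD is wide (0.37 for complex I and 0.31 for complex IV) and includes marker-positive replicate 3. Complex I ran from -0.63 without marker-positive replicate 3 to -0.11 with median centring. Complex IV ran from -0.42 without marker-positive replicate 3 to -0.016 without marker-positive replicate 1. Over 982 values of 41 named genes, 24 passed the threshold only in the alternative, 48 lost it, 42 changed sign and 0 did so while called. Of all calls, 51.6% were lower, against 37.6% with median centring and 13.5% with slide as a fixed block. The labels number no replicates, so slide was the block that was fitted. With 3 arrays against 6, the 95% interval stayed within a 2-fold change for 45 of 83 members, and 6 of 117 probes were too dim to test.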
